A study of Mus musculus with 55 samples.

Results

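The 45 genes described here encode nuclear subunits of the 5 mitochondrial respiratory chain complexes. They were taken by symbol from a list of subunit genes, by a rule that uses no measured value, and each symbol was matched to its gene among 37620 genes measured in liver. Complex I was represented by 21 members (Ndufa1, Ndufa2, Ndufa3, Ndufa5, Ndufa6, Ndufa8, Ndufa9, Ndufa10, Ndufb3, Ndufb5, Ndufb7, Ndufb8, Ndufb9, Ndufb10, Ndufc1, Ndufs1, Ndufs3, Ndufs4, Ndufs7, Ndufv1 and Ndufv2) and complex II by 4 (Sdha, Sdhb, Sdhc and Sdhd). Complex III had 6 members (Uqcrc1, Uqcrc2, Uqcrfs1, Uqcrb, Uqcrq and Cyc1). Complex IV had 9 (Cox4i1, Cox5a, Cox5b, Cox6a1, Cox6b1, Cox6c, Cox7b, Cox8a and Ndufa4, whose protein is now placed in complex IV), and complex V had 5 (Atp5a1, Atp5b, Atp5c1, Atp5d and Atp5o).

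Complexes I and II take electrons from NADH and succinate, complex III hands them to cytochrome c, and complex IV passes them to oxygen. Complexes I, III and IV pump protons across the inner mitochondrial membrane, and complex V uses that gradient to make ATP, which hepatocytes spend on urea synthesis, gluconeogenesis and biosynthesis. Most subunits are encoded in the nucleus and imported, and a small set of core subunits is encoded by the mitochondrial genome, so that each complex other than II is assembled from products of both genomes.

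The livers came from 55 male mice of 29 Collaborative Cross lines, a panel of inbred lines bred from 8 founder strains. The mice were untreated, between 8 and 11.9 weeks old and weighed between 12.8 and 38 g. A line was represented by 1 mouse in 8 lines, by 2 mice in 16 lines and by 3 mice in 5 lines, and line was the only label that defined the groups. Age was the same for all mice of a line in 20 of the 21 lines with several mice and differed between lines, and mean body weight ran from 14.7 g in IL-785 to 32.9 g in IL-4457, so line cannot be told apart from age and weight. RNA was sequenced from poly(A)-selected libraries, and expression is given as FPKM, a deposited measure scaled by the authors' software to transcript length and to the fragments of the library. Mice of a line are separate animals, so the p-values set differences between lines against the spread between mice of the same line.

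Depth ranged from 20542671 to 33953036 estimated fragments per mouse, and a member had between 340 and 43524 of them in a mouse, so that counting error was small beside the spread between mice. The hepatocyte gene Alb was detected in every liver (8656 to 50167 FPKM). Some libraries stood apart. Mouse 1 of IL-3912 held skeletal muscle transcripts (4 markers summed to 1220 FPKM, median 0.01), mouse 2 of IL-1052 brown fat transcripts (Ucp1 41.5 FPKM) and mouse 2 of IL-3575 pancreatic transcripts (4 markers summed to 307 FPKM, median 22.0). Lower sums of the muscle markers were found in mice 1 and 2 of IL-785 (57.6 and 51.2 FPKM), which were kept. Mouse 1 of IL-2146 had the strongest dependence of expression on GC content, with log2 values rising by 0.43 per 10 percentage points of GC. Mouse 2 of that line was next with 0.18, against -0.21 to 0.10 in the mice of other lines. Mitochondrially encoded genes took 0.755% of the fragments in mouse 1 of IL-2146, against 3.10% in mouse 2 of that line and 4.15% to 8.44% elsewhere. Each of the 5 mice labelled IL-1052 or IL-2750 had its most similar library in the other of these lines, whereas 41 of 47 mice from lines with several animals were nearest to one of their own line. Results were therefore also computed without 4 mice (mouse 1 of IL-3912, mouse 2 of IL-1052, mouse 2 of IL-3575 and mouse 1 of IL-2146). They were also computed without both IL-1052 and IL-2750.

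The members were among the abundant transcripts of the liver, and 31 of 45 averaged at least 100 FPKM. The median member of complex IV had a mean of 292 FPKM, that of complex V 196, complex II 144, complex III 134 and complex I 83.8. Atp5b, the catalytic beta subunit of ATP synthase, was the highest, with a lowest, median and highest mouse at 352, 567 and 847 FPKM. Ndufa4 followed with 358, 571 and 864 FPKM. Ndufc1, a small accessory subunit of the membrane arm of complex I, was the lowest, with 16.3, 29.3 and 70.1 FPKM. The ranges of Atp5b and Ndufc1 over the 55 livers did not overlap, and FPKM is scaled to transcript length, so these levels can be set against each other.

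In complex I, the highest member was Ndufb9, an accessory subunit of the membrane arm, with 128, 229 and 367 FPKM in the lowest, median and highest mouse. In complex II, Sdhd, a membrane anchor, was highest (99.5, 146 and 204 FPKM), and Sdhc, the other anchor, was lowest (57.2, 74.2 and 107 FPKM). In complex III, Uqcrb, a small subunit that contacts the ubiquinone site, was highest (60.3, 223 and 346 FPKM), and Uqcrc1, a core protein, was lowest (61.6, 120 and 182 FPKM). In complex IV, the lowest member was Cox7b, a small subunit encoded on chromosome X, with 85.0, 155 and 274 FPKM. In complex V, Atp5d, the delta subunit of the central stalk, was lowest, with 93.5, 149 and 205 FPKM. Mouse 3 of line IL-2156 gave the lowest value of Atp5b, Ndufc1, Ndufb9, Sdhd, Cox7b and Atp5d.

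All 45 members differed among the 21 lines with at least 2 mice (edgeR quasi-likelihood F test, Benjamini-Hochberg adjusted p under 0.05), at a background of 88.5% of 15285 genes tested. Differences among lines were thus the rule in these livers, and the members' count says little about them in particular. The F values ran from 2.35 in Uqcrb (edgeR adjusted p = 0.021) to 10.9 in Ndufs4 (edgeR adjusted p = 1.2e-07), with Cox5b next at 10.3 (edgeR adjusted p = 2.0e-07). Leaving out both IL-1052 and IL-2750 gave 44 called members, and leaving out the 4 mice that stood apart gave 45.

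The differences were modest in size. The highest line mean was at least 2 times the lowest in 22 of 45 members, against 71.4% of the 8742 genes with a mean of at least 2 FPKM, and 13 members reached it when only lines with at least 2 mice were used. Without mouse 3 of IL-2156 the count was 14. The median ratio was 1.95, against 2.45 over all such genes, and ran from 1.62 in Uqcrfs1, the Rieske iron-sulfur protein of complex III, to 3.09 in Ndufa5, an accessory subunit of the matrix arm of complex I. Line means had a median coefficient of variation of 15.2% (20.5% over all such genes), and mice of the same line 10.2%. In complex I 13 of 21 members reached the ratio, in complex IV 4 of 9, in complexes III and V 2 each and in complex II 1.

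The share of the variance that lay between lines was measured by the intraclass correlation on normal scores of FPKM over 55 mice. Its median over the members was 0.600, against 0.555 over the 11284 genes that reached 2 FPKM in a mouse, and 35 members lay above that value. The highest were Ndufs4 (0.811), Uqcrb (0.735), Cox7b (0.734), Ndufb9 (0.729) and Cox5b (0.720), which encodes a peripheral zinc-binding subunit of complex IV. The lowest were Ndufs1 (0.358), the large iron-sulfur subunit of complex I, Uqcrq (0.398), a small subunit of complex III, and Ndufa9 (0.411), an accessory subunit of complex I. For Ndufs1 the mice of one line could differ widely, with 38.0 and 56.8 FPKM in IL-2011, and 83.6% of its deposited values were not whole numbers, so that fragments were shared with other loci. That share was also high in Atp5b (60%), Uqcrc2 (60%) and Sdhc (49.1%), whose intraclass correlations were 0.693, 0.610 and 0.509. Uqcrb was second by this rank-based measure over 55 mice and last by F over 47 mice. Its mice in IL-2146 had 60.3 and 197 FPKM, and its F was 5.85 without mouse 1 and 11.8 without mouse 2 of that line.

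The members rose and fell together across lines. For each mouse, the level of the members was taken as the median over the 45 genes of the log2 difference from the gene's mean over lines, on the log2(FPKM + 1) scale after division by the TMM factor, a scaling for library composition. In IL-2156 the level was -0.27, -0.37 and -0.64 in the 3 mice, with a line mean of -0.43, and 45 of 45 members lay below their mean over lines. In IL-2126, with 1 mouse, it was 0.45, and 45 of 45 lay above. In IL-2146 the mice had 0.44 and 0.38. The next lowest lines were IL-557 with 1 mouse at -0.26, IL-219 with -0.23 and -0.28, and IL-72 with -0.20 and -0.17. The next highest were IL-4141 at 0.21 and IL-2689 at 0.15, each with 1 mouse. In bulk tissue, fewer cells of a type and less RNA per cell cannot be told apart.

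**Figure D1:**
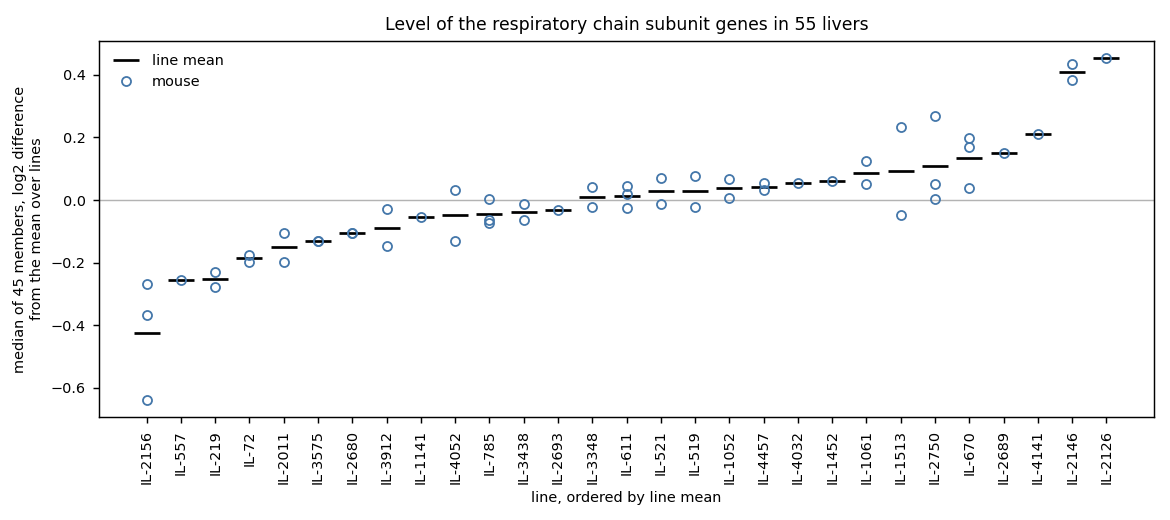
Level of the respiratory chain subunit genes in each liver (y axis, median over 45 members of the log2 difference from the mean over lines) for the 29 lines ordered by line mean (x axis). Circles are mice and bars are line means; the 3 mice of IL-2156 (-0.27, -0.37 and -0.64) lie lowest or nearly so, and the mice of IL-2146 (0.44 and 0.38) and IL-2126 (0.45) lie above all others.

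The line means of this level spanned 0.88 on the log2 scale, a 1.84-fold difference between IL-2126 and IL-2156, and a 1.78-fold difference when only lines with at least 2 mice were used. The SD was 0.18 over line means and 0.091 between mice of a line. Most of the order in the middle cannot be read, since 16 of 29 lines lay within 0.1 of 0 and neighbouring lines differed by a median of 0.015. The span was 0.77 without mouse 3 of IL-2156, and 0.78 after a correction for GC content and transcript length within each mouse, by which IL-2146 moved from 0.41 to 0.21 and IL-2126 from 0.45 to 0.34, while IL-2156 had -0.44.

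The levels of the single complexes followed each other. Spearman's rho over the 29 line means was 0.924 between complexes I and III, 0.920 between III and V, 0.912 between I and IV, and lowest between II and IV (0.593). These points share libraries and composition, and rho is given as a description. In IL-2156 the 5 complexes lay between -0.37 (complex II) and -0.47 (complex V), close to each other. The widest gap of line means was in IL-2011, where complex IV stood at -0.051 and complex II at -0.33. It lay mostly in mouse 1 of IL-2011 (-0.033 and -0.48), and mouse 2 had -0.069 and -0.17. In IL-557 complex IV stood at -0.43 and complex II at -0.19, and in IL-4141 at 0.27 and 0.048. Both lines had 1 mouse. That of IL-557 had the most negative dependence of expression on GC content (-0.21 per 10 percentage points), whose part in the gap was not tested. A first principal component held 62.2% of the variance of the members' line means and the next 11.4%.

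**Figure D2:**
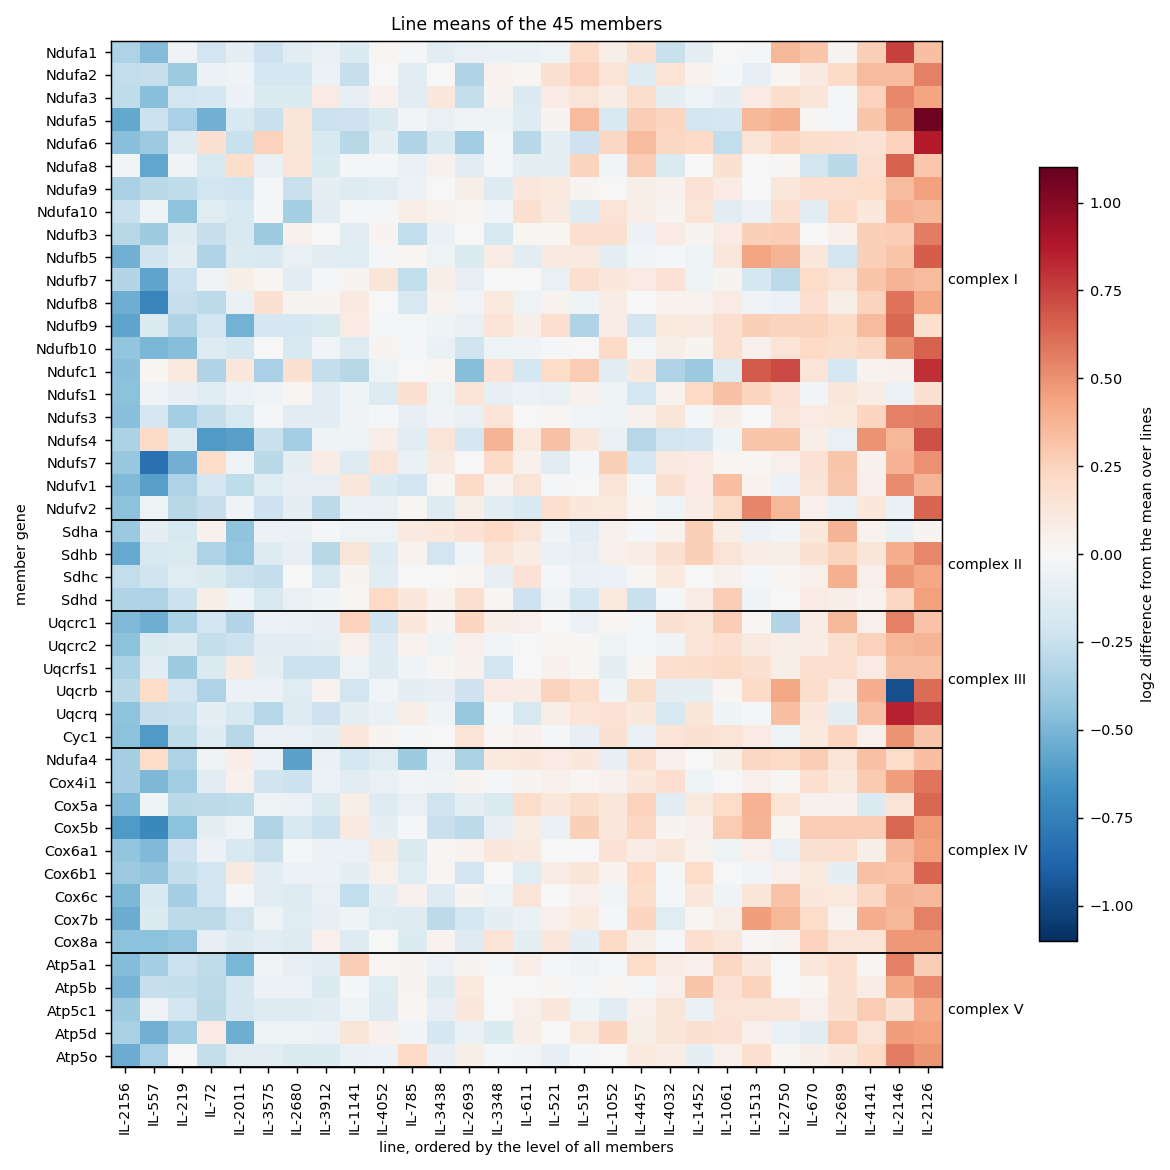
Line means of the 45 members (rows, grouped by complex I to V) in 29 lines (columns, ordered by the members' level), as the log2 difference from the gene's mean over lines (colour). All 45 members are below 0 in IL-2156 and above 0 in IL-2126, and Uqcrb in IL-2146 and Ndufs4 in IL-72 and IL-2011 run against or beyond the colour of their column.

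Pairs of members of the same complex had a median correlation close to that of pairs from different complexes. The median rho over 29 line means was 0.547 for 277 pairs within a complex and 0.556 for 713 pairs between complexes. Within complexes it was 0.748 in V, 0.676 in IV, 0.534 in III, 0.520 in I and 0.512 in II. All 36 pairs within complex IV and all 10 within complex V had a positive rho. So did 275 of the 277 pairs within a complex and 706 of the 713 between complexes, against 49.9% of pairs of all tested genes. The highest pairs joined different complexes, namely Ndufv1, the NADH-binding subunit of complex I, with Cyc1, the cytochrome c1 of complex III (0.927), and Uqcrc2, a core protein of complex III, with Atp5b (0.908). The lowest pairs were Ndufc1 with Sdha, the flavoprotein of complex II (-0.295), and Ndufa8, an accessory subunit of complex I, with Sdha (-0.287). Without the 3 lines of most extreme level, IL-2156, IL-2146 and IL-2126, the medians were 0.437 within and 0.430 between complexes. For deviations of single mice from their line mean they were 0.507 and 0.477, so the members also moved together among mice of a line.

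**Figure D3:**
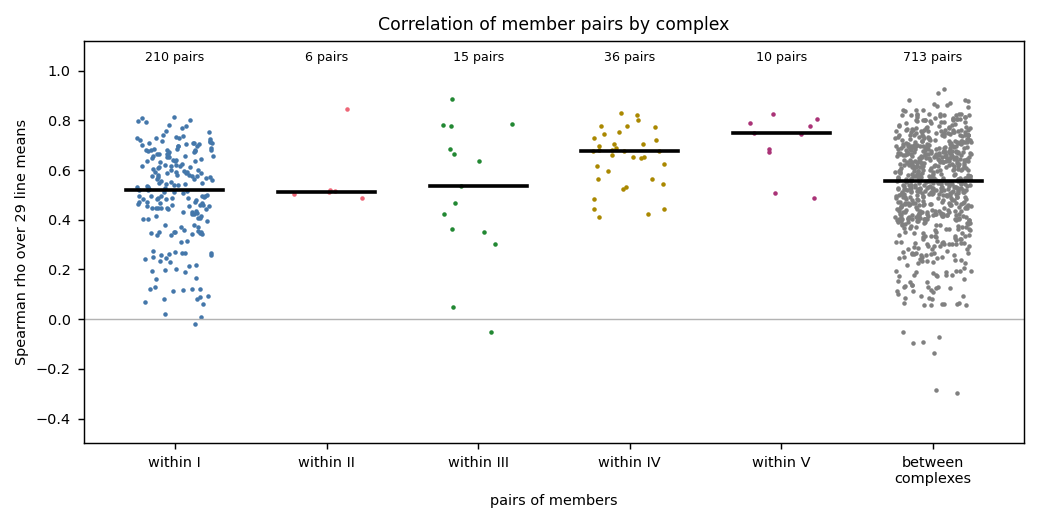
Spearman's rho of line means (y axis, 29 lines) for pairs of members within each complex and between complexes (x axis). Points are pairs and bars are medians (0.520 in I, 0.512 in II, 0.534 in III, 0.676 in IV, 0.748 in V and 0.556 between complexes); nearly all pairs lie above 0.

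A few members followed the rest least. The lowest median rho with the other members of the complex was that of Ndufs1 in complex I (0.239), Uqcrb in III (0.302), Sdha in II (0.504), Cox5a in IV (0.507) and Atp5d in V (0.591). Against all other members, the lowest were Ndufa8 (0.265), Ndufc1 (0.272) and Sdha (0.30), and the highest Ndufs3, an iron-sulfur arm core subunit of complex I (0.690). Cox5a, which binds at the matrix side of complex IV, differed widely between mice of a line, with 353 and 205 FPKM in the mice of IL-1513 and 155 and 272 FPKM in those of IL-2146, and 45.5% of its deposited values were not whole numbers.

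Each of the 21 lines with at least 2 mice was also set against the mean of the other 20 in the same edgeR fit. These comparisons share the other lines with each other. In IL-2156 43 members were lower, against a background of 10.2% of all genes, among them 20 of complex I, 5 of complex III, and all members of complexes II, IV and V. Cox5b had 163, 148 and 116 FPKM in the 3 mice of IL-2156, below the median mouse of 219, with a log2 difference of -0.66 ± 0.09 (SE; edgeR adjusted p = 1.5e-06). Ndufb9 had 179, 163 and 128 FPKM, with -0.59 ± 0.10 (edgeR adjusted p = 3.0e-05). Cox7b had 124, 122 and 85.0 FPKM, with -0.56 ± 0.09 (edgeR adjusted p = 3.0e-05). Sdhc changed least among those called, with -0.19 ± 0.06 (edgeR adjusted p = 0.018). Ndufa8 (77.8, 76.5 and 64.2 FPKM) was not called, with -0.09 ± 0.07 (edgeR adjusted p = 0.43), nor was Uqcrb (197, 202 and 154 FPKM), with -0.31 ± 0.16 (edgeR adjusted p = 0.15). When each mouse was left out in turn, between 34 and 44 members were lower in IL-2156.

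In IL-2146 38 members were higher, against a background of 26.1% of all genes, and Uqcrb was lower. The largest increases were those of Ndufa1, a small accessory subunit of complex I encoded on chromosome X (0.77), Uqcrq (0.75), Ndufb9 (0.67), Cox5b (0.66) and Ndufa8 (0.62), on the log2 scale. Uqcrq had 361 and 344 FPKM, which with the 349 FPKM of IL-2126 were its highest values, and its difference was 0.75 ± 0.10 (edgeR adjusted p = 1.1e-06). Ndufa8 had 121 and 101 FPKM, its highest values, with 0.62 ± 0.08 (edgeR adjusted p = 7.1e-07). Sdha, Ndufs1, Ndufv2, Cox5a, Ndufa4 and Atp5c1 were not called. Ndufc1 was called higher, while its line mean of 28.8 FPKM (26.5 and 31.0) lay below its mean of 30.4 FPKM over all mice. The edgeR fit used counts, which unlike FPKM are not scaled to transcript length, and the part of transcript length in this call was not tested. Without the 4 mice that stood apart, which leaves 1 mouse of IL-2146, 29 members were higher.

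The members' increases in mouse 1 of IL-2146 went with GC content. Over the 45 members, rho between the log2 difference from the mean over lines and the GC content of the transcripts was 0.638 in mouse 1 and 0.270 in mouse 2, and it was -0.104 in mouse 3 of IL-2156 and -0.115 in IL-2126. The 9 members of lowest GC content lay on both sides of 0 in mouse 1. Below 0 were Uqcrb (42.2% GC, -1.81), Ndufv2 (46.2%, -0.33), Ndufs1 (45.3%, -0.32) and Ndufc1 (44.1%, -0.06), and above 0 were Cox7b (42.0%, 0.21), Ndufs4 (43.0%, 0.33), Uqcrc2 (44.3%, 0.44), Ndufa4 (44.9%, 0.10) and Ndufb3 (0.17). In mouse 2 Uqcrb stood at -0.12 and the other 8 lay above 0. The part of GC content in these differences was not tested beyond the correction given above.

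**Figure D4:**
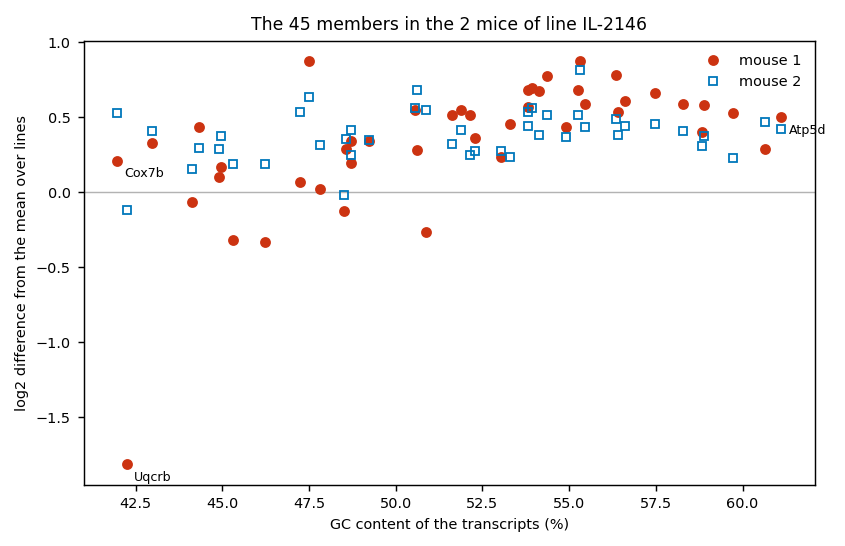
Log2 difference from the mean over lines (y axis) against the GC content of the transcripts in percent (x axis) for the 45 members in the 2 mice of IL-2146. Filled circles are mouse 1 (rho 0.638) and open squares mouse 2 (rho 0.270); Uqcrb in mouse 1 lies at -1.81, far below the other points.

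Smaller shifts of many members were found in other lines. In IL-219 12 members were lower, against a background of 5.65%, with 6 of complex I, 4 of complex IV and 1 each of complexes III and V. Ndufs7, the iron-sulfur subunit that passes electrons to ubiquinone, had the largest difference there, -0.53 ± 0.12 (edgeR adjusted p = 0.0032). In IL-2750 18 members were higher, against a background of 11.6%, of which 12 belonged to complex I, and Uqcrc1 was lower (-0.27 ± 0.09, edgeR adjusted p = 0.048). In IL-1513 12 members were higher, against 15.1% of all genes, with the largest differences in Ndufc1 (0.58 ± 0.12, edgeR adjusted p = 0.00071) and Ndufv2, a core subunit of the NADH-oxidising part of complex I (0.57 ± 0.11, edgeR adjusted p = 0.00018). In IL-670 10 members were higher, against 10.3% of all genes, and Ndufa8 was lower (63.3, 61.3 and 56.0 FPKM, -0.27 ± 0.07, edgeR adjusted p = 0.011). The counts in IL-1513, IL-670 and IL-219 changed most when a mouse was left out, and such fits of IL-1513 and IL-219 kept 1 mouse of the line. Without mouse 1 of IL-1513, whose level was 0.23 against -0.05 in mouse 2, the edgeR count of higher members there was 0, and 0 at an unadjusted p under 0.05. Without mouse 1 or mouse 2 of IL-670 the edgeR count was 0, with 10 and 8 members at an unadjusted p under 0.05. Without either mouse of IL-219 2 members were lower, all of them among the 12. A line left with 1 mouse was assumed to vary like the other lines. In IL-2750 11, 14 and 12 members were higher without mouse 1, 2 and 3. Log2 values in these mice changed by 0.044, -0.18 and -0.21 per 10 percentage points of GC, whose part in the IL-2750 differences was not tested. In the remaining 15 lines fewer than 10 members were called in a direction, with between 0.759% and 20.9% of all genes called per line and direction.

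Markers of other liver cells moved with the members' level across lines. The sum of 5 Kupffer cell markers (Clec4f, Cd5l, Vsig4, Emr1 and Marco, all detected in every mouse) ranged from 9.29 to 248 FPKM and had a rho of -0.758 with the level over 29 lines. It was 57.0, 248 and 120 FPKM in the mice of IL-2156, 196 in IL-557, 117 and 89.8 in IL-219, 17.6 in IL-2126, and 59.5 and 48.2 in IL-2146, near the median mouse at 55.1. For deviations of the 47 mice from their line means, rho was 0.0064. The sums of lymphocyte, sinusoidal endothelial and stellate cell markers had a rho of -0.574, -0.523 and -0.482 with the level, and that of 3 cholangiocyte markers 0.382. The endothelial and stellate sums were lowest in IL-2146 (10.2 and 11.1 FPKM, and 16.3 and 15.8 FPKM). The hepatocyte sum had a rho of 0.182, with 30194, 28854 and 14697 FPKM in IL-2156, where the last is the lowest of all mice. Depth had a rho of 0.039, age -0.164, body weight -0.254, the GC slope -0.032 and the fragment length offset, transcript length minus effective length, -0.305. For deviations from line means, rho was 0.369 for the hepatocyte sum, 0.301 for the GC slope, 0.279 for depth and -0.135 for the fragment length offset. The part of these measures in the members' level was not tested.

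Breaks of single members from the rest were sought in each line of at least 2 mice. A break was a difference of at least 0.5 on the log2 scale from the median of the other members, in the same direction in every mouse of the line. By this rule 1 of 45 members broke, while 36.7% of 16140 tested genes broke from the median of all tested genes, and 9 members did so when measured against that median. Of 2475 values of a member in a mouse, 99.0% lay within 0.5 of the other members of that mouse.

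The break was Uqcrb in IL-2146. It lies at chr13:67001553-67006314 on the minus strand of build mm9. Its FPKM was 60.3 and 197 in the mice of IL-2146, against a median mouse of 223, and it stood 2.26 and 0.51 below the other members on the log2 scale. In edgeR it was lower by 0.77 ± 0.20 on the log2 scale than in the other lines (edgeR adjusted p = 0.0022). Transcript ENSMUST00000021993 took at least 99.7% of its expression in every mouse. The 2 mice of this pair have the steepest GC dependence of all libraries (0.43 and 0.18 per 10 percentage points). After correction for GC content and length the values of Uqcrb were -1.75 and -0.33, so that the rule was no longer met. The count of breaking members was 0 without either mouse of IL-2146 and without the mouse of IL-557, and 2 without mouse 1 of IL-2750. Uqcrq, its neighbour in the complex, stood 0.44 and 0.43 above the other members in the same mice, and Sdha 0.57 and 0.41 below them (128 and 138 FPKM).

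Ndufs4 came next and differed by line in both directions. This accessory subunit helps to hold the NADH-oxidising arm of complex I, and its loss causes Leigh syndrome. The gene lies at chr13:115078003-115178302 on the minus strand of build mm9. Its lowest lines were IL-72 with 25.8 and 25.2 FPKM, IL-2011 with 24.2 and 27.9 FPKM and IL-4457 with 28.7 and 30.9 FPKM. Its highest lines of at least 2 mice were IL-3348 with 56.6 and 59.0 FPKM, IL-521 with 54.5 and 50.7 FPKM and IL-1513 with 62.6 and 41.8 FPKM, and IL-2126 had 65.0 FPKM. These lines were picked by their Ndufs4 values, so the gap between them is a description.

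Against the other lines, Ndufs4 was lower, with log2 differences of -0.66 ± 0.11 in IL-72 (edgeR adjusted p = 5.4e-05) and -0.62 ± 0.10 in IL-2011 (edgeR adjusted p = 7.1e-05). They were -0.36 ± 0.10 in IL-2680 (edgeR adjusted p = 0.014) and -0.28 ± 0.10 in IL-4457 (edgeR adjusted p = 0.027). It was higher in IL-3348 by 0.46 ± 0.09 (edgeR adjusted p = 0.0013) and in IL-521 by 0.38 ± 0.09 (edgeR adjusted p = 0.0049). Relative to the other members of the same mouse, it stood at -0.44 and -0.44 in IL-72, -0.47 and -0.42 in IL-2011, -0.41 and -0.31 in IL-4457, and 0.36 and 0.38 in IL-3348. Corrected for GC content and length, these values were -0.39 and -0.35, -0.44 and -0.43, -0.46 and -0.33, and 0.35 and 0.40. Only 1 transcript of Ndufs4 was listed. Once the members' level was taken out, the intraclass correlation of Ndufs4 was 0.863, the highest of the members, and those of Ndufa8, Ndufa10 and Ndufa4 were 0.835, 0.816 and 0.805. It was at least 0.5 in 29 of 45 members.

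**Figure D5:**
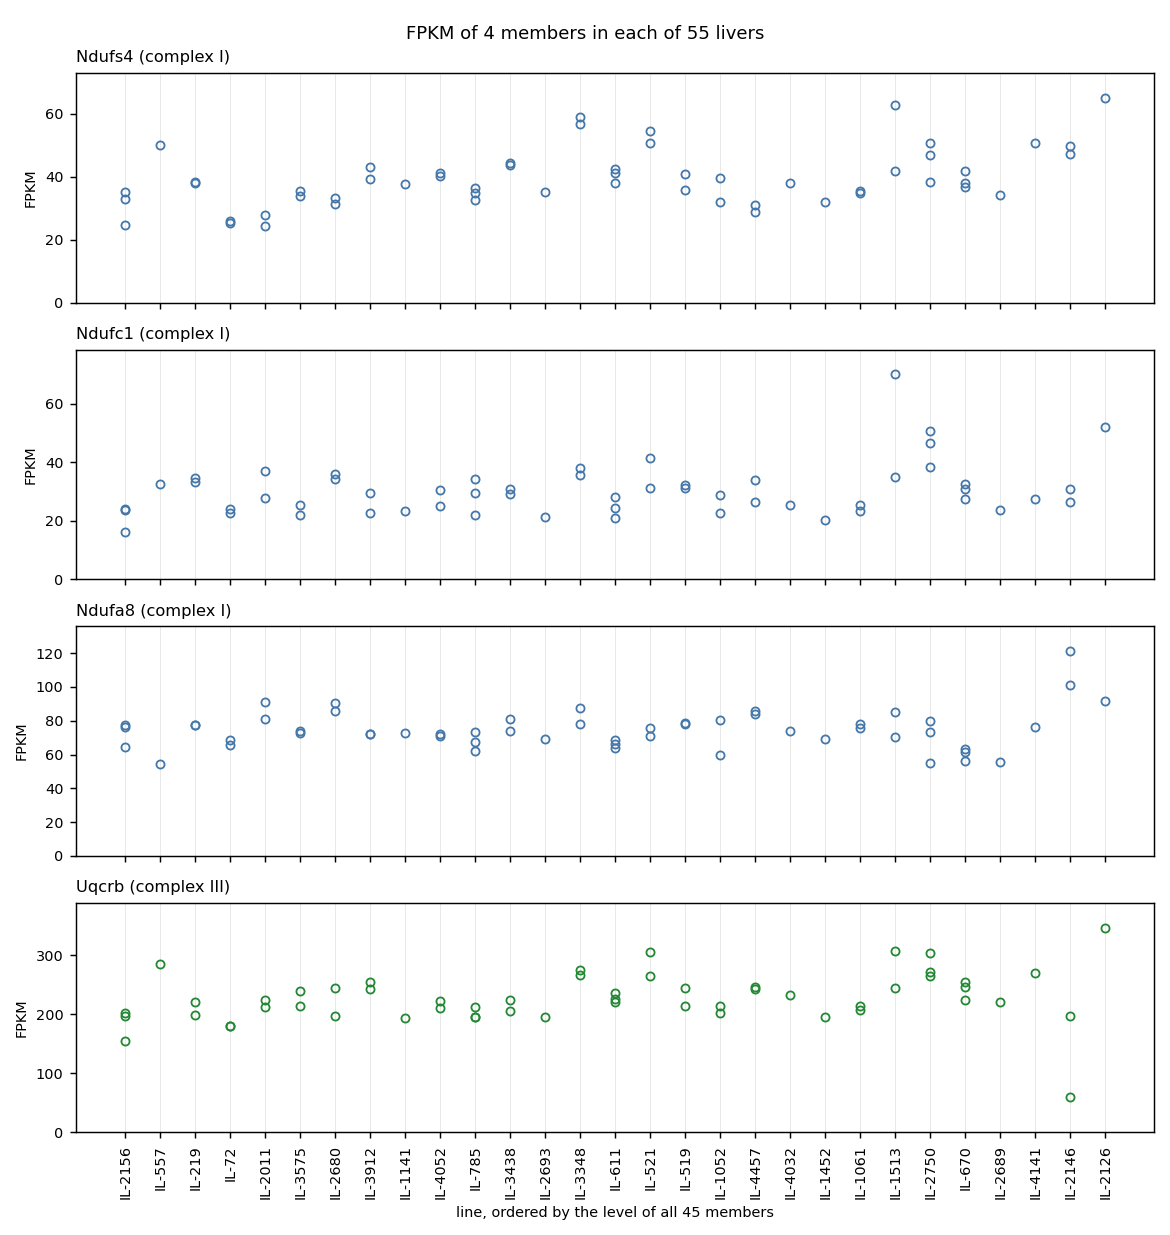
FPKM (y axes, from 0) of Ndufs4, Ndufc1, Ndufa8 and Uqcrb in each of 55 livers, with lines ordered by the level of all members (x axis). Circles are mice; Ndufs4 is low in IL-72 and IL-2011 (24.2 to 27.9), Ndufc1 is high in IL-2750 and in mouse 1 of IL-1513 (70.1), Ndufa8 is high in IL-2146 (121 and 101), and Uqcrb is lowest in mouse 1 of IL-2146 (60.3).

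Other members left the shared level by at least 0.3 in every mouse of a line. Over the 45 members there were 19 such member and line combinations, in 13 members, out of 945 combinations of a member and a line. The limit was set after the values were seen. Of 16140 tested genes, 90.9% left the median of the members by this limit in at least 1 line, and 64% left the median of all tested genes. Ndufc1, at chr3:51208599-51212910 on the minus strand, had 46.7, 50.6 and 38.5 FPKM in IL-2750, where it stood 0.43, 0.80 and 0.63 above the other members, and was higher than in the other lines by 0.59 ± 0.10 (edgeR adjusted p = 0.0002). The GC slope of the IL-2750 mice was 0.044, -0.18 and -0.21 per 10 percentage points, and Ndufc1 has a GC content of 44.1%. The part of GC content in its high values there was not tested. In IL-1052 Ndufc1 had 22.8 and 28.7 FPKM. Transcripts ENSMUST00000038108 and ENSMUST00000135602 of Ndufc1 took a mean of 53.0% and 43.6% of its expression, and the share of the former ran from 30.7% in IL-2126 to 99.0% in mouse 1 of IL-2146.

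Ndufa8, at chr2:35891846-35904926 on the minus strand, stood 0.37, 0.35 and 0.47 above the other members in IL-2156, whose level was the lowest. Ndufa4 had 464 and 358 FPKM in IL-2680, 0.35 and 0.62 below the other members, and had a log2 difference from the other lines of -0.57 ± 0.11 (edgeR adjusted p = 0.00037). It was also lower in IL-785, with 394, 409 and 452 FPKM (-0.37 ± 0.09, edgeR adjusted p = 0.0026). Ndufb9 had 160 and 168 FPKM in IL-2011 and 165 and 164 FPKM in IL-519, between 0.32 and 0.42 below the other members. Atp5d had 94.4 and 115 FPKM in IL-2011 (-0.54 ± 0.10, edgeR adjusted p = 0.00016). In lines of 1 mouse, Ndufa5 had 166 FPKM in IL-2126, 0.61 above the other members, and Ndufs7 had 34.3 FPKM in IL-557, 0.57 below them. The IL-557 library had the lowest GC slope of all mice (-0.21), and Ndufs7 has a GC content of 60.6%. The part of GC content in this value was not tested. The remaining combinations were those of Ndufs7, Ndufa5 and Ndufa6 in IL-72, Ndufa6 in IL-1061, Ndufb7 in IL-2750 and Ndufc1 in IL-219.

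Promoter letters were compared because the members moved together. RefSeq promoters on build GRCm38.p6, from 250 bases before to 50 after the gene start, were found for 34 of 45 members, without Ndufa2, Ndufb9, Ndufs1, Sdhc, Uqcrc2, Uqcrb, Uqcrq, Cyc1, Cox4i1, Cox6c and Atp5a1. Exact matches were sought on both strands. The NRF1 letters GCGCATGCG occurred in 3 members (8.82%, against 1.95% of 27025 genes), the YY1 letters AAGATGGCG in 4 (11.8% against 1.64%), the ETS and GABPA letters CCGGAAG in 7 (20.6% against 9.93%) and the ERR letters TCAAGGTCA in 1 (2.94% against 0.466%). The TATA box letters TATAAA occurred in 3 members (8.82% against 15.7%), and 20 of the 34 held none of the 5 motifs. The member promoters had a median GC content of 59%, against 52.7% for all promoters, and a match is a description and no measure of binding. The 30-base windows with NRF1 letters are shown on the gene's strand with the match in capitals, which in Ndufa8 is the reverse complement. Cox6a1 and Uqcrc1 also hold the reverse complement, shifted by 1 base. Those windows lie at chr5:115349101-115349130 (minus strand, Cox6a1), chr2:36049328-36049357 (minus strand, Ndufa8) and chr9:108936668-108936697 (plus strand, Uqcrc1).
Cox6a1: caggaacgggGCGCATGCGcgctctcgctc
Ndufa8: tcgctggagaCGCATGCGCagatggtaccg
Uqcrc1: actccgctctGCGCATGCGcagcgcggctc

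All members with YY1 letters belong to complex I, and the match started between 22 and 35 bases after the gene start in the same orientation. They were Ndufs4, Ndufc1, Ndufs7 and Ndufa9, and 18 of the 34 members with a promoter belong to complex I. The windows lie at chr13:114388045-114388074 (minus strand, Ndufs4), chr3:51408914-51408943 (minus strand, Ndufc1), chr10:80249463-80249492 (plus strand, Ndufs7) and chr6:126849096-126849125 (minus strand, Ndufa9), with the match in capitals.
Ndufs4: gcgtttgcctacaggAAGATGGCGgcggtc
Ndufc1: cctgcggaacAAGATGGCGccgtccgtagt
Ndufs7: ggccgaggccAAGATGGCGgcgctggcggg
Ndufa9: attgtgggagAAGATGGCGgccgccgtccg

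The Sdhd promoter held ETS letters starting 46 bases before the gene start and the only ERR letters, 36 bases after it. Its windows lie at chr9:50603877-50603906 and chr9:50603800-50603829 on the minus strand and hold the reverse complements in capitals. The YY1 members did not follow the other members alike, with a median rho of 0.428 for Ndufs4, 0.272 for Ndufc1, 0.496 for Ndufs7 and 0.674 for Ndufa9, within a range of 0.265 to 0.690 over the 45 genes.
Sdhd with ETS letters: ccgtctcctgcCTTCCGGttcacgcttcag
Sdhd with ERR letters: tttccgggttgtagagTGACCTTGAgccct

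Other genes of the pathway were set beside the members. Of 34 other nuclear subunits, 34 differed among lines in the edgeR F test, as did 25 of 25 assembly factors, 11 of 12 regulators of mitochondrial genes and 12 of 13 mitochondrially encoded subunits, against the background of 88.5%. Of 8 subunit forms of muscle and other tissues, 5 were expressed enough to be tested and 4 differed. Of these, Cox6a2 (5.385 FPKM, highest mouse 10.7) and Cox7a1 had their highest line mean in IL-3912, whose mouse 1 held muscle transcripts. The highest line mean of Cox8b (16.1 FPKM, highest mouse 32.1) was that of IL-1052, whose mouse 2 held brown fat transcripts. Nrf1, a transcription factor of respiratory genes, was the regulator not called (edgeR adjusted p = 0.15). The level of the other subunits had a rho of 0.889 with that of the members over 29 lines, the assembly factors 0.759, the regulators 0.333 and the mitochondrially encoded subunits 0.120. In IL-2146, where the nuclear members were high, all 13 mitochondrially encoded genes had their lowest line mean, and their level was -2.57 on the log2 scale. The libraries were poly(A)-selected, mitochondrially encoded genes took 0.755% and 3.10% of the fragments in these mice, and the part of library preparation was not tested.

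Among the other 34 subunits, 7 broke from the median of the members in at least 1 line by the same rule, against 50.7% of 16140 tested genes. The members set that median themselves, so their own count is not set beside it. Of 25 assembly factors 9 broke, of 12 regulators 6, of 13 mitochondrially encoded subunits 13 and of 8 tissue-specific forms 3. All 13 mitochondrially encoded subunits broke in IL-2146, where such genes took 0.755% and 3.10% of the fragments. Of them, mt-Atp6, mt-Co3, mt-Cytb, mt-Nd1 and mt-Nd4 broke in no other line. Ndufa12, an accessory subunit of complex I, had 16.5, 17.1 and 15.8 FPKM in IL-670, 14.1 and 17.9 FPKM in IL-2011 and 19.4 and 21.7 FPKM in IL-3348, against a mean of 33.9 FPKM. Atp5g1, a gene for the c subunit of ATP synthase, had 135, 53.4 and 85.6 FPKM in IL-2750, against a mean of 174. Ndufab1, the mitochondrial acyl carrier protein, had 168 and 111 FPKM in IL-1513 and 34.6 and 38.2 FPKM in IL-72, against a mean of 71.6. In IL-2146 Cycs, which encodes cytochrome c, was low (24.9 and 25.6 FPKM, mean 40.8), and Atpif1, the inhibitor of ATP synthase, was high (57.6 and 54.4 FPKM, mean 24.8). Atp5e, the epsilon subunit of ATP synthase, had 286, 272 and 204 FPKM in IL-2156, 0.69, 0.62 and 0.58 above the members, which were low there.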

How the data were processed

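Liver RNA of 55 mice was sequenced by the authors with a stranded poly(A) kit, and reads were mapped to mm9 (NCBI37, Ensembl 67) with Bowtie 2 and quantified with RSEM 1.2.18. The deposited estimated counts, TPM and FPKM come from that RSEM step by the authors, and so does the deposited percent of a gene's expression in each transcript. Fragments shared between loci were split by RSEM, so members with similar copies are less certain.

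Groups are the lines in the labels. Estimated counts were rounded and tested with edgeR 4.0.16 (R 4.3.3; TMM, default expression filter, quasi-likelihood F test, Benjamini-Hochberg adjustment over 15285 genes) in the 47 mice of 21 lines with at least 2 mice, and each line was then set against the mean of the other 20 lines. DESeq2 1.42.0 was an alternative. Levels used log2(FPKM / TMM factor + 1), with a pseudocount of 1, which understates changes of low genes. Intraclass correlations used normal scores of FPKM rounded to bins, and Spearman's rho used line means (Python 3.11.15, numpy 2.4.6, scipy 1.17.1, pandas 2.3.3). The fits were also run on simulated counts, drawn with the same spread for every gene and with changed genes in IL-219 only. These data are less simple, so that run does not measure the error of the fits here.

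The members' rule uses no measured value, but the members and lists were chosen with earlier results of these data known, so the choice is not independent of them. Named were the highest and lowest member of each complex by mean FPKM, the 5 highest and 3 lowest intraclass correlations, breaks, the member least correlated within each complex, and up to 6 breaking genes among the other subunits. Other members with values, such as Ndufa8, Ndufa5, Ndufs7 and Ndufv2, were chosen after their values were seen. For 3 members RefSeq held 2 promoters.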

Additional observations from a re-analysis of the deposited data

How the results depend on the processing

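No paired analysis was possible because the replicate numbers follow accession order and pair no mice across lines. With Pearson's correlation the median over member pairs was 0.622 within and 0.647 between complexes, with either pseudocount (0.622 and 0.647 at 0.1). Between complexes it was 0.477 for deviations within lines. The number of breaking members was 0 at a limit of 0.75 or 1 and 9 against the median of all tested genes. Only lines with at least 2 mice gave 13 members with a ratio of at least 2. Alternatives chosen after seeing the data gave 0.437 within and 0.430 between complexes without IL-2156, IL-2146 and IL-2126, 0 breaks without the 4 mice that stood apart or after GC and length correction, 5 breaks at a limit of 0.4, and a level span of 0.785 after that correction. The cause of these changes was not tested.

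Leaving out each mouse in turn gave 0 to 2 breaking members (0 without either mouse of IL-2146 or without IL-557, 2 without mouse 1 of IL-2750), a level span of 0.772 to 0.958, and 14 to 27 members with a ratio of at least 2. It gave 2 to 17 members lower in IL-219, 11 to 21 higher in IL-2750, 0 to 16 higher in IL-1513 and 0 to 14 higher in IL-670. The count of members that differed among lines stayed at 44 or 45. Lines of 1 mouse have no replicate check, and with 2 mice a line's value rests on either of them.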
